A study of Mus musculus with 7 samples.

Results

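Spleen cells of irradiated mice that had received an allogeneic splenocyte graft and a control antibody were compared with those of mice given a syngeneic graft, 4 days after transplantation. The members are the 2 arrays labelled allogeneic with isotype antibody and the single array labelled syngeneic, 3 of the 7 arrays in the series, identified by these labels. All 22626 probe sets that are not manufacturer controls were compared, and they cover 12393 genes with 1 symbol each. All recipients were female C57BL/6 (B6) mice aged 9 to 12 weeks that were irradiated with 10.0 Gy and injected 4 to 6 h later with donor splenocytes from which red cells had been removed. Donors were C3H/HeN mice, whose MHC differs from that of B6, in the isotype group, and B6 mice in the syngeneic group. The isotype group received control rat IgG, 500 µg at first and 200 µg every other day afterwards; the day of its first injection is not stated, and the labels name no antibody for the syngeneic mice. The other 4 arrays are of C3H-grafted B6 mice given an antibody against ICOSL from day 0 or from day 3, and they enter here only through the estimate of the spread and as values side by side. Allogeneic RNA was combined and then hybridised to 2 arrays, so a p-value measures the spread between arrays, which may be technical. Graft strain and, by the labels, the control antibody change together with alloreactivity, so the 3 cannot be told apart in any difference given here.

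In a lethally irradiated recipient most of the host's dividing blood cells die, and the spleen is refilled by grafted lymphocytes beside host cells that resist irradiation, such as macrophages and stroma. Donor T cells that meet foreign MHC molecules are activated, switch from a resting to an effector gene programme, divide, burn more glucose and acquire cytokines, killing molecules and new homing receptors. The spleen is also a filter: macrophages of its red pulp take up old red cells and debris, digest them in lysosomes and recycle the iron, and in mice it makes red cells and granulocytes when the marrow is damaged.

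The values are MAS5 signals, a linear brightness per probe set scaled to a common trimmed mean on every array. Array medians ran from 145.3 to 174.3 and the trimmed means from 500.18 to 500.19. Between the 2 isotype arrays, 1314 probe sets lay at least 2-fold apart, against 1008 and 1027 between the arrays of the anti-ICOSL pairs. Markers of a spleen were present: B cell genes summed to 107375 on the syngeneic array and 79506 and 77863 on the isotype arrays, T cell genes to 38038, 61347 and 54098, and red pulp macrophage genes to 77522, 9338 and 9522. Gapdh's control probe sets, whose 3' over 5' signal tracks how whole the RNA was, gave 0.957 on the syngeneic array and 0.784 and 0.767 on the isotype arrays. The same ratio for Actb was 1.03 on the syngeneic array and 1.00 and 1.02 on the isotype arrays. The part of RNA quality in the results was not tested.

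More genes of the isotype spleens were lower than higher at the test's threshold. Differences are isotype minus syngeneic on the log2(signal + 50) scale, which understates changes of weak genes. Fold changes and counts of 2-fold differences come from the same scale, so a fold is smaller than the ratio of the signals printed beside it. A gene is said to have risen or fallen where limma's adjusted p was under 0.05. Limma called 542 of 22626 probe sets, 175 higher (0.773%) and 367 lower (1.62%). Taking for each gene its brightest probe set on average, 112 genes rose (0.904% of 12393) and 215 fell (1.73%). Without a test, 288 genes (2.32%) were at least 2-fold higher and 483 (3.9%) at least 2-fold lower on both isotype arrays, and the median over all genes was 0.03. At an unadjusted p under 0.05, 992 genes (8.0%) were higher and 1219 (9.84%) lower. Both isotype arrays lay above the syngeneic array in 4883 of the 12393 genes and below it in 4312, so a lack of overlap alone was common. These shares are the background against which the counts of each gene group below are to be read. The split between higher and lower calls was 607 to 724 with the trend and robust options of limma, and 210 to 328 with median centring. At an unadjusted p under 0.05, 1673 probe sets were higher and 2100 lower in the main fit. Median centring turned this to 2114 and 1635, and quantile normalization gave 1812 and 1924, so that direction depended on the scaling.

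The calls depended on which arrays were fitted. Limma called 0 probe sets without isotype array 1 (3991 at an unadjusted p under 0.05, against 3773 with all arrays), 0 without isotype array 2 (3270) and 0 in a fit to the 3 arrays alone (2915). It called 144 without either day 0 array and 178 without either day 3 array. With probe sets of low signal left out, 1017 were called, and 516 and 406 without isotype array 1 or 2. The values on each array, the 2-fold counts and the medians do not depend on the test and are given beside the calls.

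Among 57 gene lists, the medians of S100 and annexin genes, glycolysis and effector transcription factors stood highest. Red pulp macrophage, neutrophil and erythroid genes stood lowest. Lists of oxidative phosphorylation, the tricarboxylic acid cycle, ribosomal proteins and translation factors lay near the median of all genes. The sign of 4 list medians, all between -0.05 and -0.02, turned with another scaling: chemokine and homing receptors, endothelium, p53 targets and the tricarboxylic acid cycle.

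**Figure D1:**
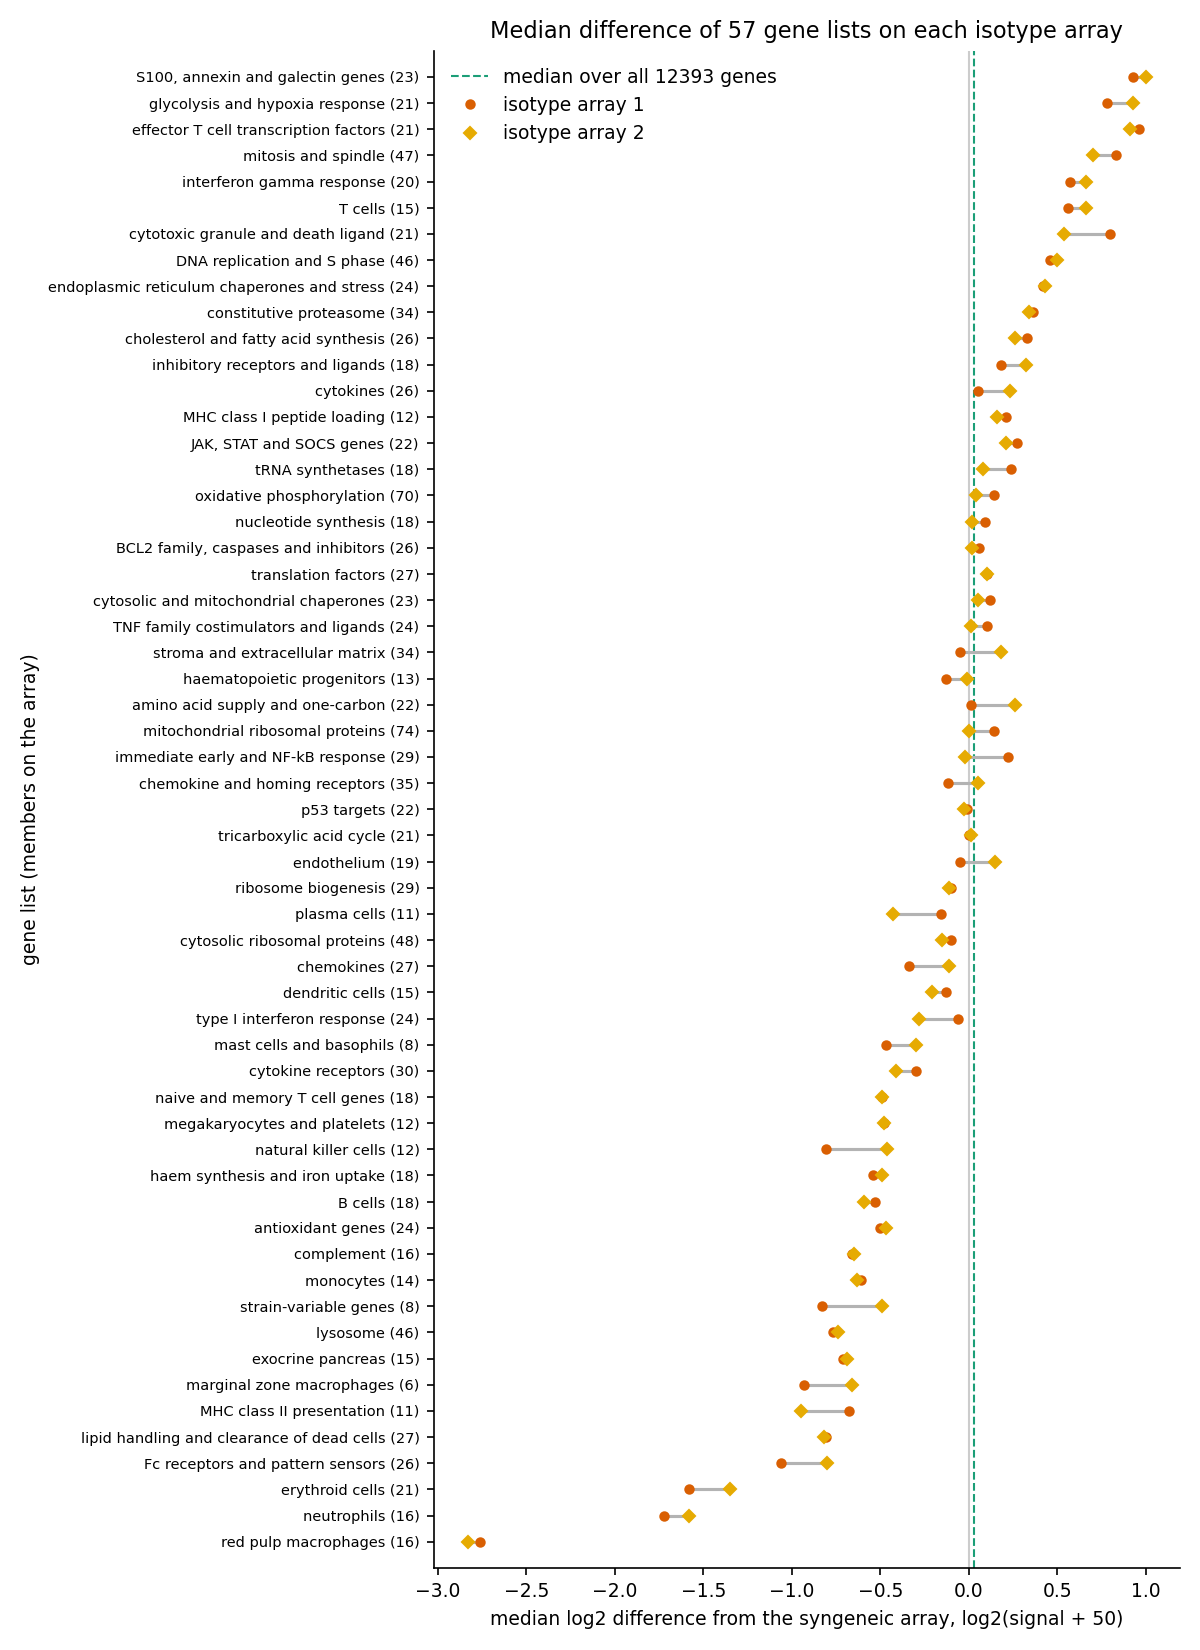
Each row is a gene list with the number of its members on the array, and the horizontal axis is the median log2 difference of the members from the syngeneic array, for isotype array 1 (circles) and isotype array 2 (diamonds). The dashed line is the median over all 12393 genes (0.03); red pulp macrophage genes lie at -2.76 and -2.83 and S100, annexin and galectin genes at 0.93 and 1.00.

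Zbtb32, Batf and other transcription factors of effector T cells were higher in the isotype spleens. Of 21 effector T cell transcription factors on the array, 6 rose and 0 fell, 8 were at least 2-fold higher on both isotype arrays, and the median was 0.88. Of 15 T cell markers, 3 rose, and their summed signal was 38038 on the syngeneic array and 61347 and 54098 on the isotype arrays. Cd4, which marks helper T cells, rose from 815 to 2434 and 2412, while Cd8a, which marks killer T cells, stood at 3272 against 4261 and 2040, on either side of the syngeneic value. In a whole spleen, more cells of a type and more RNA per cell cannot be told apart. The part of the larger T cell signal in the values below was not tested.

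Zbtb32, a repressor induced in activated lymphocytes, had a signal of 70.9 on the syngeneic array and 1855 and 2105 on the isotype arrays, a rise of 16.8-fold. Batf, a partner of IRF4 at effector genes, rose from 642 to 2663 and 2392 (log2 difference 1.89 ± 0.24 SE, adjusted p = 0.0227). Bhlhe40, which sustains cytokine production in T cells, rose from 483 to 1753 and 2497. In each of these 3 genes both isotype arrays lay above the syngeneic array, as in 4883 of all 12393 genes. Prdm1, which encodes BLIMP-1, the factor of terminal effector and plasma cells, rose from 268 to 805 and 793, and Stat4, which carries the signal of interleukin 12, rose from 888 to 2103 and 2165. Tbx21, encoding T-bet, the master regulator of type 1 T cells, stood at 857 against 2200 and 2410 and missed the threshold (1.38 ± 0.26, adjusted p = 0.0638). Gata3, its counterpart in type 2 cells, stood at 126 against 313 and 324 (adjusted p = 0.225). Foxp3, the factor of regulatory T cells, stood at 89.3 against 99.8 and 82.8, so the syngeneic value lay between the isotype arrays. Zeb2, a factor of terminal effectors, was the lowest of the 21, at 253 against 134 and 37.2 (adjusted p = 0.267).

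The S100, annexin and galectin list, which also holds cytoskeletal genes of migrating cells but not the neutrophil genes S100a8 and S100a9, had the highest median of the 57 (0.97). Of its 23 members, 9 rose and 0 fell, and 11 were at least 2-fold higher on both isotype arrays. The list's summed signal was 50095 on the syngeneic array and 125104 and 128741 on the isotype arrays. S100a6 and S100a4, small calcium-binding proteins that accompany motility, rose 6.81-fold and 6.39-fold. S100a6 stood at 759 against 5831 and 5106. S100a4 stood at 691 against 5315 and 4130. Both isotype arrays were above the syngeneic array in each gene, as in 4883 of all 12393 genes. S100a9 and S100a8, which are counted with the neutrophil genes, ran the other way and fell from 9572 to 2153 and 1990 and from 9735 to 3068 and 2977. Lgals1 and Lgals3, sugar-binding galectins of activated lymphocytes and macrophages, rose from 5423 to 27954 and 27698 and from 1566 to 7393 and 7520. Anxa2, which binds membranes together with S100a10, rose from 2545 to 10810 and 14418, while S100a10 itself stood at 3626 against 9849 and 8114 and missed the threshold (adjusted p = 0.0671). Vim, the intermediate filament vimentin, rose from 5316 to 16111 and 18642, Tagln2, an actin-binding protein, from 2374 to 6404 and 7196, and Ahnak, a large scaffold protein under the membrane, from 1091 to 2663 and 3255. Emp1, a membrane protein, stood at 1.4 on the syngeneic array and 574 and 567 on the isotype arrays, so its syngeneic signal was close to nothing. Anxa1, which neutrophils and macrophages hold in large amounts, ran the other way at 1601 against 471 and 347 (-1.86 ± 0.34, adjusted p = 0.0568).

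Genes that mark naive and memory T cells were mostly lower, with 15 of 18 below 0 and a median of -0.45, but only Igfbp4 fell. Igfbp4, a binding protein of insulin-like growth factors that naive T cells express, stood at 8046 against 1065 and 703, an 8.83-fold difference (-3.14 ± 0.30, adjusted p = 0.0103). Ccr7, the receptor that guides naive T cells into T cell zones, stood at 1425 against 406 and 284 and missed the threshold (adjusted p = 0.0509). Bach2, a repressor that holds T cells in a resting state, stood at 703 against 273 and 224 (adjusted p = 0.220). Il7r, the receptor for the survival cytokine interleukin 7, stood at 2637 against 1151 and 1359, and Bcl2, a survival protein it sustains, at 1082 against 413 and 454. On both isotype arrays these genes were lower than on the syngeneic array, as were 4312 of all 12393 genes. Klf2 and Satb1, which are also high in resting T cells, stood at 4078 against 4357 and 4345 and at 2163 against 2445 and 2524. Cd44, an adhesion receptor that rises on memory and effector T cells and is also high on myeloid cells, fell on the array from 2608 to 1140 and 998.

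**Figure D2:**
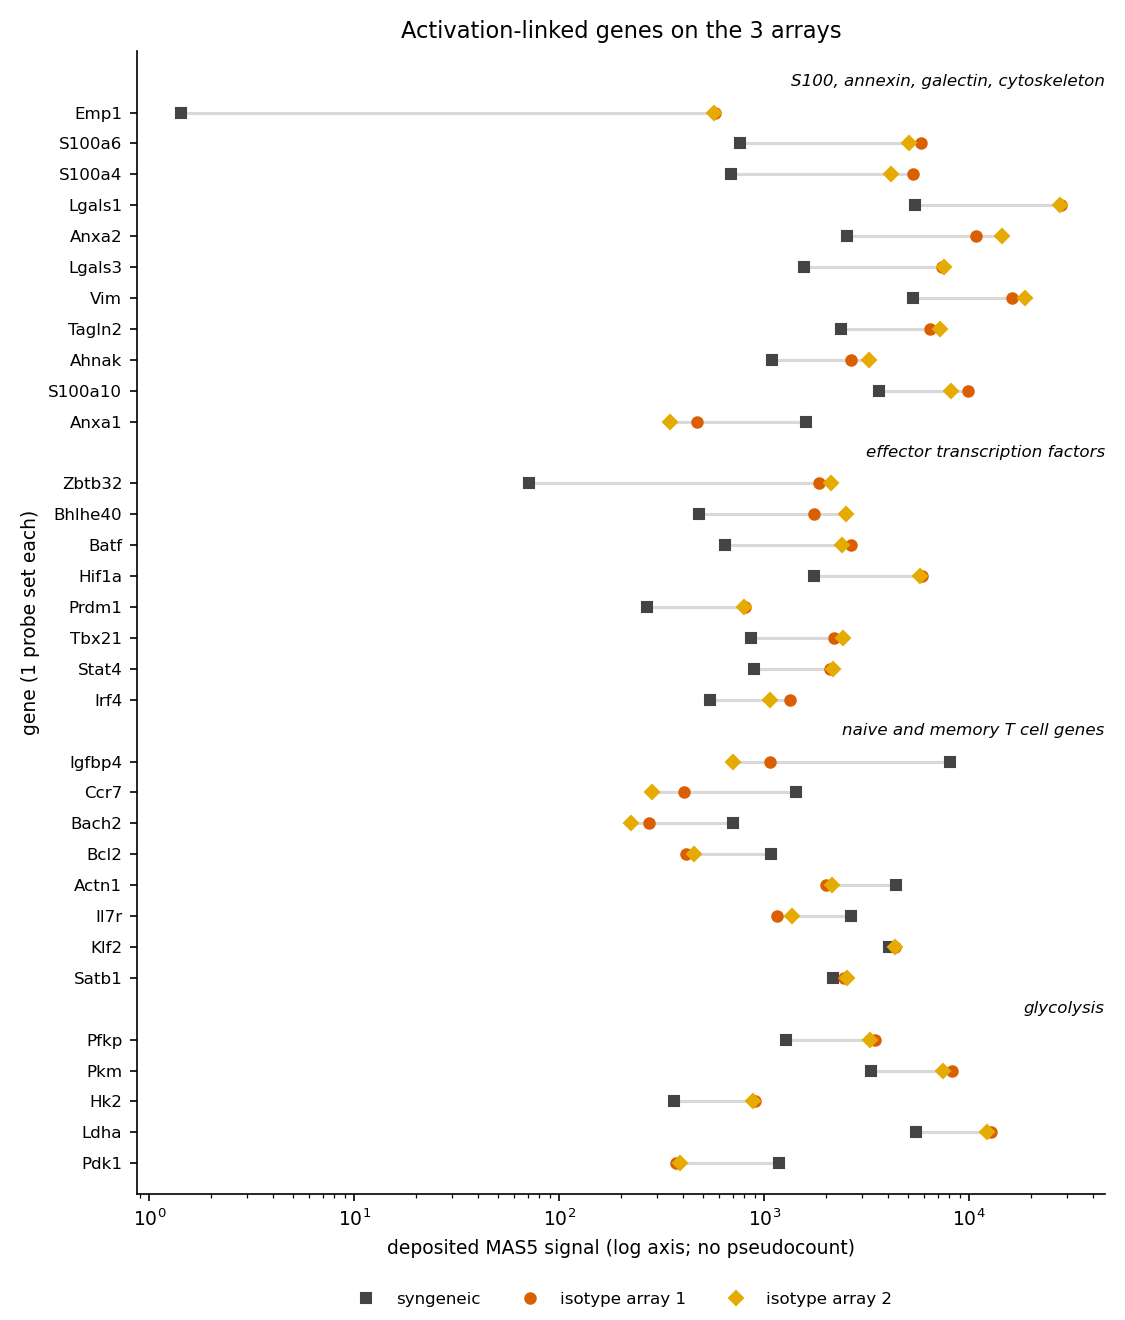
Deposited signal of genes of 4 groups on a log axis, for the syngeneic array (squares), isotype array 1 (circles) and isotype array 2 (diamonds), 1 probe set per gene; the line joins the lowest and highest array. In 10 of the 11 S100, annexin, galectin and cytoskeletal genes shown the isotype arrays lie above the syngeneic array, Anxa1 being the other, and in 6 of the 8 naive and memory genes they lie below it.

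Genes of glucose breakdown were higher. Of 21 glycolysis and hypoxia genes, 4 rose and 0 fell, 6 were at least 2-fold higher on both isotype arrays, and the median was 0.88. Hif1a, the oxygen-sensing subunit of HIF-1, rose from 1753 to 5860 and 5767. Pfkp, a subunit of the rate-setting phosphofructokinase, rose from 1276 to 3456 and 3278, Pkm, pyruvate kinase, from 3333 to 8238 and 7463, and Ldha, which turns pyruvate into lactate, from 5472 to 12829 and 12273. Hk2, the inducible hexokinase, stood at 361 against 901 and 884 and missed the threshold (adjusted p = 0.0656). Pdk1, a hypoxia-induced kinase that keeps pyruvate out of mitochondria, was lower, at 1174 against 372 and 386 (-1.51 ± 0.47, adjusted p = 0.195). Of enzymes of mitochondria, 0 of 70 oxidative phosphorylation genes and 0 of 21 tricarboxylic acid cycle genes were called by limma. At an unadjusted p under 0.05, 3 of the 70 were higher and 1 lower, and 1 of the 21 was higher; their medians were 0.12 and -0.05.

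Cytokine receptor genes changed in both directions. Of 30 cytokine receptor genes, 3 rose and 2 fell, with a median of -0.27. Il2ra, the chain that gives the interleukin 2 receptor its high affinity, stood at 154 against 1927 and 1864, a 9.52-fold rise. Il12rb2 and Il18r1, chains for the interferon-inducing interleukins 12 and 18, rose from 108 to 537 and 421 and from 686 to 2486 and 2613. Il18rap, the partner of Il18r1, stood at 301 against 868 and 810 (adjusted p = 0.0606). In these 4 genes both isotype arrays were above the syngeneic array, as in 4883 of all 12393 genes. Csf2ra, the receptor chain for the myeloid growth factor GM-CSF, fell from 674 to 141 and 160, and Il10rb, a chain shared by the interleukin 10 family, fell from 1916 to 576 and 485. At an unadjusted p under 0.05, 5 of the 30 receptors were higher and 10 lower.

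Of 26 cytokines, 3 rose and 1 fell, with a median of 0.22. Ifng, the macrophage-activating cytokine of type 1 T cells and killer cells, stood at 132 against 2262 and 2607. Il21, a helper cytokine for B cells and killer cells, stood at 4.4 against 337 and 503, and Csf1, the growth factor of macrophages, rose from 122 to 403 and 358. Il18, which macrophages release, fell from 2164 to 432 and 513, opposite to its receptor chain Il18r1. Il15, a survival cytokine of memory and killer cells, stood at 168 against 47.5 and 43.5, and Il1b at 574 against 221 and 243; neither was called. Il4, the lead cytokine of type 2 T cells, stood at 107 against 27.3 and 29.7 (adjusted p = 0.0867). Il10, an inhibitory cytokine, stood at 78.3 against 162 and 267 (adjusted p = 0.201), and Il2 at 73.7 against 74.7 and 52.2.

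Chemokine genes were lower in most members, with 18 of 27 below 0 and a median of -0.19; 1 fell and 0 rose. Ccl5, a chemoattractant made by memory and killer T cells, was the one that fell, from 7951 to 2423 and 2226 (-1.75 ± 0.21, adjusted p = 0.0192). Cxcl9 and Cxcl10, which interferon gamma induces, stood at 109 against 249 and 381 and at 171 against 399 and 336 (adjusted p = 0.159 and 0.118). Cxcl12, the stromal ligand that retains blood cells in marrow and spleen, stood at 128 against 56.1 and 20.2. Of 35 chemokine and homing receptors, Cxcr6, a receptor of effector T cells, rose from 720 to 2676 and 2616, and Cd44 fell. Ccr3, a receptor best known on eosinophils, stood at 364 against 76.7 and 20.6, and Ccr9, the receptor for gut homing, at 178 against 38.7 and 33.5; neither was called.

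**Figure D3:**
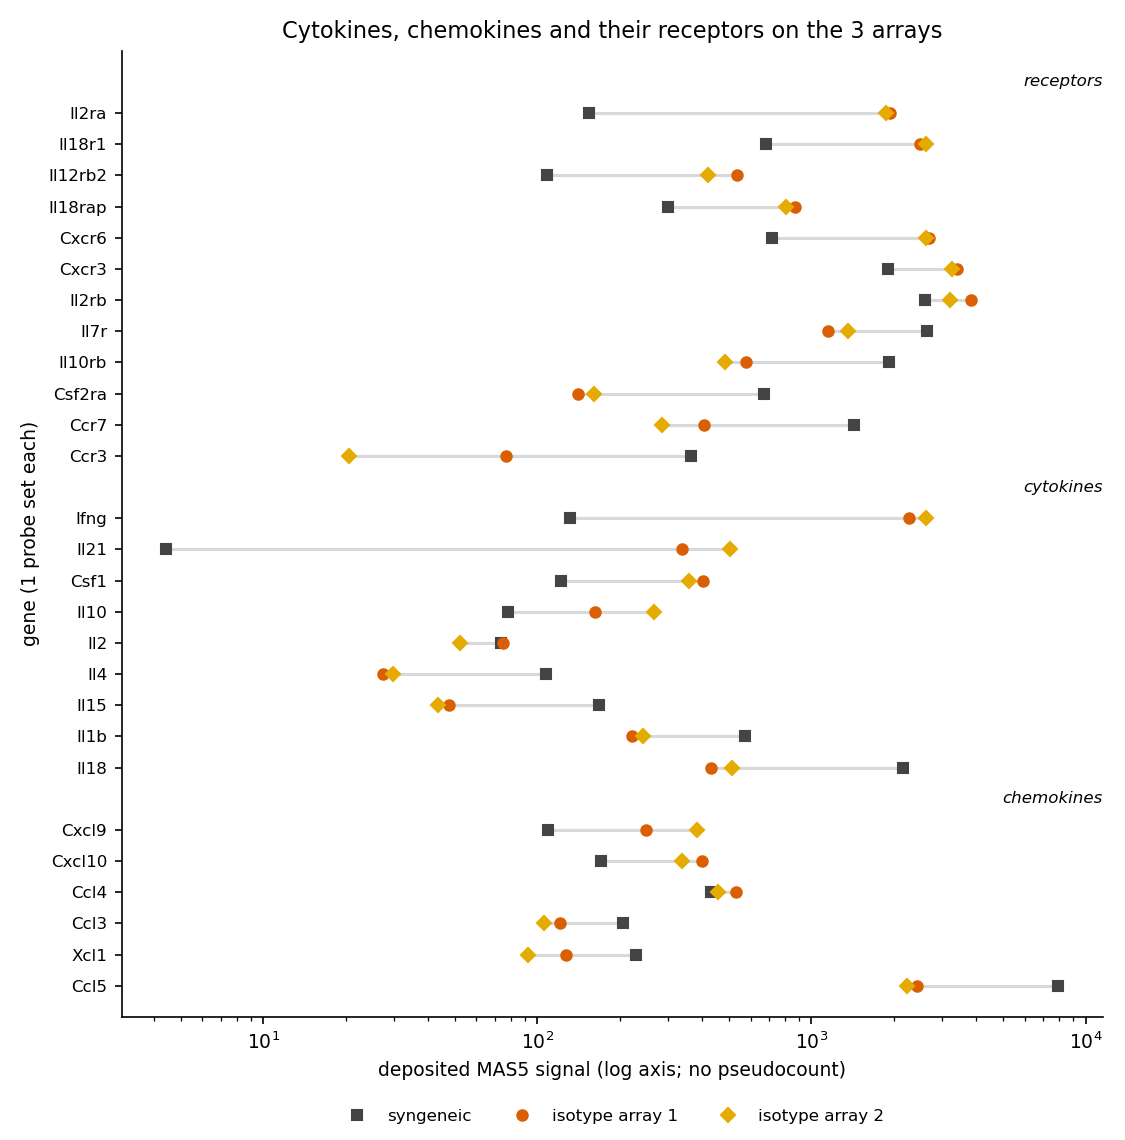
Deposited signal of cytokine, chemokine and receptor genes on a log axis for the syngeneic array (squares), isotype array 1 (circles) and isotype array 2 (diamonds), 1 probe set per gene. Il2ra, Ifng and Il21 show the widest gaps with the isotype arrays above, and Il18 and Ccl5 lie below the syngeneic array.

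Tnfsf9, Tnfrsf4 and Tnfrsf18 of the tumour necrosis factor family rose, as did 6 receptors of the inhibitory and CD28-related list. Of 24 members of the family, 3 rose and 1 fell, with a median of 0.08. Tnfrsf4 (OX40) and Tnfrsf18 (GITR), costimulatory receptors of activated T cells, rose from 1113 to 3094 and 3259 and from 1032 to 2447 and 2704, and Tnfsf9, the ligand of 4-1BB, rose from 62.6 to 388 and 371. Tnfrsf1a, the widely expressed receptor of tumour necrosis factor, fell from 1817 to 618 and 624. Cd40lg, the T cell ligand that licenses antigen-presenting cells, stood at 12.6 against 208 and 187, a gap that missed the threshold (1.98 ± 0.64, adjusted p = 0.207). Of 18 inhibitory receptors, CD28 relatives and ligands, 6 rose and 0 fell, and all 6 are receptors of T cells: Pdcd1, Havcr2, Icos, Ctla4, Lag3 and Cd28. Icos, the receptor of ICOSL, stood at 480 against 4044 and 4383, and Icosl, its ligand, at 568 against 388 and 499 (adjusted p = 0.585). Pdcd1 (PD-1) stood at 58.9 against 929 and 1272, Havcr2 (TIM-3) at 57.1 against 980 and 898, and Lag3 at 183 against 1320 and 1277. Among their ligands and partners, Cd86, which B cells and myeloid cells carry, stood at 1041 against 358 and 226 and was not called on its brightest probe set (adjusted p = 0.0605), but fell on another, from 820 to 191.7 and 191.5 (-1.85, adjusted p = 0.0186).

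Some granule proteases and protease inhibitors of killer cells rose, as did perforin. Of 21 cytotoxic granule and death ligand genes, 6 rose and 1 fell, with a median of 0.55 and a summed signal of 40394 against 88863 and 99340. Gzmk and Gzmb, granule proteases, stood at 127 against 3354 and 3719 and at 3059 against 25581 and 30122, and Prf1, the pore-forming perforin, at 618 against 3089 and 2977. Serpinb9 and Serpinb6b, inhibitors that shield cells from granule proteases, rose from 748 to 3968 and 3717 and from 462 to 1877 and 2133. Gzmm, a granzyme of natural killer and innate-like T cells, fell from 567 to 116 and 165.

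Among signal transducers and early response genes, Stat4 rose and Fos and Dusp1 fell. Of 22 JAK, STAT and SOCS genes, Stat4 alone rose; Socs1, an inhibitor that cytokines induce, stood at 374 against 772 and 830 and was not called. Of 29 immediate early and NF-kB genes, 0 rose and 2 fell, and the median was 0.05. Fos, a subunit of the AP-1 factor induced within minutes of stimulation, fell from 2515 to 305 and 284 (-2.90 ± 0.21, adjusted p = 0.00756). Dusp1, a phosphatase that ends such signals, fell from 1658 to 266 and 275 (-2.41 ± 0.23, adjusted p = 0.0101). Of the other members, Traf1, an NF-kB target, had the largest difference, 0.94, and Myc, the growth factor-induced regulator, had -0.77; neither was called.

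Cell division genes were higher, in all measured members for mitosis and in most for DNA replication. All 47 mitosis and spindle genes had a positive difference, with a median of 0.78 and a range from 0.01 to 1.89, and 5 rose. Both isotype arrays were above the syngeneic array in 45 of the 47, against 4883 of 12393 over all genes. Of 46 replication and S phase genes, 40 had a positive difference, with a median of 0.46 and a range from -0.23 to 1.26; 1 rose. Whether the 2 medians differ was not tested. Foxm1, the factor that switches on genes of late cell cycle, rose from 242 to 960 and 1109. Pttg1 (securin), which holds sister chromatids together until anaphase, rose from 5584 to 16689 and 20758, and Cdc25b, a phosphatase that opens the way into mitosis, from 627 to 1750 and 1972. Racgap1, needed to pinch the dividing cell apart, rose from 842 to 2305 and 2064, and Plk1, a kinase of spindle assembly, from 1174 to 2705 and 2769. In each of the 5, both isotype arrays were above 2 times the syngeneic signal. Among replication genes, Rrm2, part of ribonucleotide reductase, rose from 3314 to 7984 and 8074. The loader Cdc45 stood at 410 against 1016 and 944, and the thymidine kinase Tk1 at 1035 against 2145 and 2215; neither was called. Mcm7 and Rfc2, parts of the helicase and the clamp loader, stood at 7614 against 8157 and 7137 and at 1478 against 1169 and 1346.

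Promoters from RefSeq (GRCm38.p6, 250 bases before to 50 after a gene's start, the first listed start of each gene) were searched on both strands for letters known from cell cycle promoters. TTTGAA, the core of the cell cycle homology region, was present in 28 of 39 mitosis and spindle genes with a promoter in the table (71.8%), against 18.1% of all 27025 promoters. CCAAT was present in 30 of the 39 (76.9%), against 37.9%, and 25 of the 39 held both. The promoters of Plk1 (chr7:122159185-122159484, plus strand) and Racgap1 (chr15:99651607-99651906, minus strand) are shown because both genes rose and hold both motifs near the start; capitals mark TTTGAA and CCAAT, written as TTCAAA or ATTGG where the match is on the other strand.

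Plk1: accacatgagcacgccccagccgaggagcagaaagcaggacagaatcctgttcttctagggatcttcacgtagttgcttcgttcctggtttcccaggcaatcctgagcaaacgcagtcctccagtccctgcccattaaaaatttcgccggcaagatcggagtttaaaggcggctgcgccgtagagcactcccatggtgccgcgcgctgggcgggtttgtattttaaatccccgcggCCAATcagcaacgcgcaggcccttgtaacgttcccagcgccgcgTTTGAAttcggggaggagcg

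Racgap1: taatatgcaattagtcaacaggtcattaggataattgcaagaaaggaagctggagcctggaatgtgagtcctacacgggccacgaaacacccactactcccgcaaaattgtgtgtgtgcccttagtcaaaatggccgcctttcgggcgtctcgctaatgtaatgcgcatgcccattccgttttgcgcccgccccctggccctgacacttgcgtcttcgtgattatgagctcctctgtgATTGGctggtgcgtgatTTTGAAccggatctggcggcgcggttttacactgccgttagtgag

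In both sequences the CCAAT letters lie upstream of TTTGAA. A match is a description of the letters and not evidence of binding.

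Proteasome and endoplasmic reticulum chaperone genes were mostly higher, none of them called, while medians of the translation lists lay near that of all genes. Of 34 constitutive proteasome subunits, 29 had a positive difference, with a median of 0.35. Of 24 endoplasmic reticulum chaperones, 19 did, with a median of 0.45. Limma called 0 of either, and only 327 of all 12393 genes. At an unadjusted p under 0.05, 2 proteasome subunits (5.88%) and 9 chaperones (37.5%) were higher, against 8.0% of all genes, and 0 were lower. Psmd13, a regulatory lid subunit, stood at 979 against 1910 and 1911, and Manf, a stress-induced secreted chaperone, at 1414 against 3742 and 3434 (adjusted p = 0.0711). Hspa5, the main chaperone of the compartment, stood at 11262 against 15754 and 16949. Of 48 cytosolic ribosomal protein genes, 38 had a negative difference, but the median was only -0.13, limma called 0, and 5 were lower and 0 higher at an unadjusted p under 0.05. Limma also called 0 of 74 mitochondrial ribosomal protein genes, 18 tRNA synthetases, 29 ribosome biogenesis genes, 27 translation factors, 23 cytosolic and mitochondrial chaperones, 18 genes of nucleotide synthesis and 22 of amino acid supply. At an unadjusted p under 0.05 these 7 lists held between 0 and 3 members in either direction, and their medians lay between -0.10 and 0.15. Of 26 cholesterol and fatty acid synthesis genes, Tm7sf2, a sterol reductase, rose from 36.3 to 152 and 180, and the median was 0.26.

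**Figure D4:**
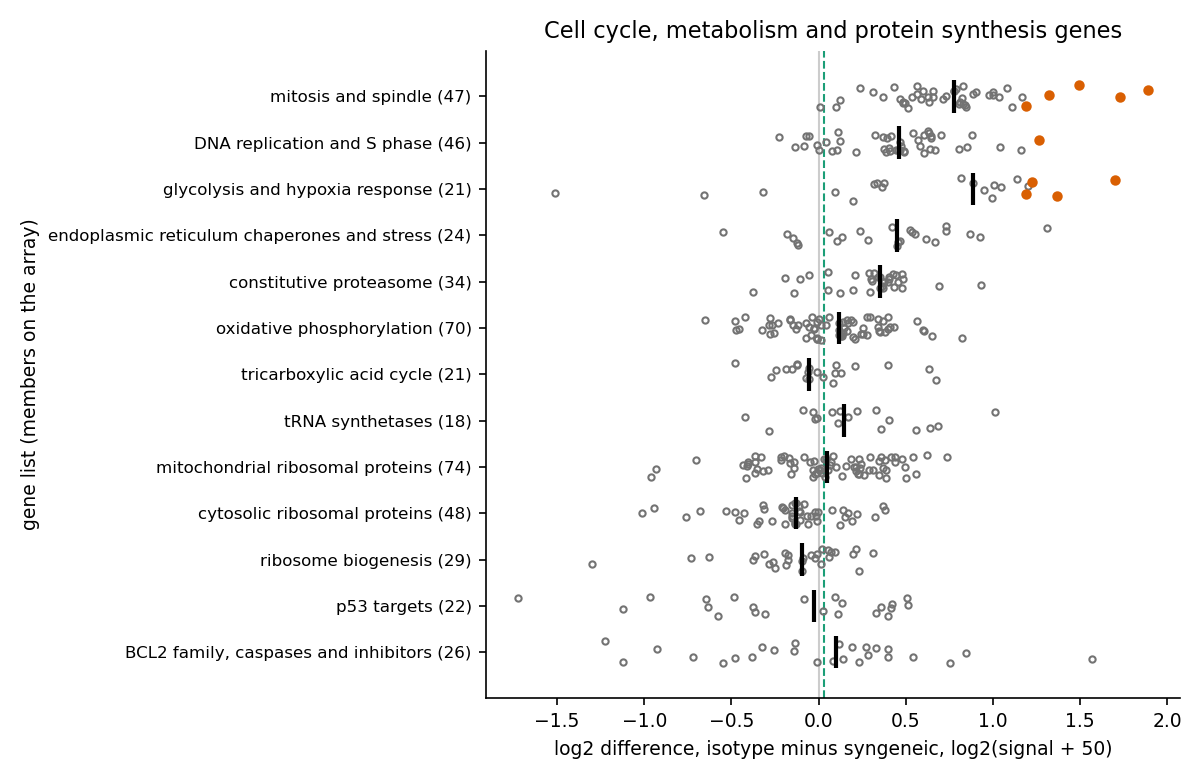
Each point is a gene placed at its log2 difference, isotype minus syngeneic, by gene list (members in parentheses); filled points were called by limma, open points were not, black bars are list medians, and the dashed line is the median over all genes (0.03). All mitosis and spindle genes lie right of 0, from 0.01 to 1.89, while oxidative phosphorylation and ribosomal protein genes scatter around the dashed line.

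Genes of phagocyte functions were lower in most members of each list. The lists share members, such as Axl, Mertk, Hmox1 and Lipa, so they are not independent. Of 16 red pulp macrophage markers, 14 fell and 0 rose, and their signals summed to 77522 in the syngeneic sample and to 9338 and 9522 in the isotype samples. On both isotype arrays 14 members were at least 2-fold lower, with a list median of -2.81. Marco, which marks macrophages of the marginal zone, fell from 1114 to 154 and 157, the only called gene of the 6 listed for this zone. Cd209b and Siglec1, also in that list, stood at 25.3 and 20.4 on the syngeneic array and below 100 on the isotype arrays. These marker sums move with every list of this and the next paragraphs on phagocytes, and their part in those values was not tested. Fewer such cells and less RNA per cell cannot be told apart.

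Genes of lipid handling and of the clearance of dead cells fell in 7 of 27 members, 10 were at least 2-fold lower on both isotype arrays, and the median was -0.82. Pla2g7, a phospholipase that inactivates oxidised lipids, stood at 2013 against 75.7 and 43.5, a 19.0-fold fall. Apoe, the lipid carrier that macrophages export with cholesterol, stood at 6903 against 489 and 350. Axl and Mertk, receptors that recognise dying cells through bridging proteins, fell from 4079 to 419 and 454 and from 1241 to 260 and 207. In each of these genes both isotype arrays were below the syngeneic array, as in 4312 of all 12393 genes. Lrp1, a large receptor for lipoproteins and debris, fell from 1216 to 140 and 157, Lpl, which releases fatty acids from lipoproteins, from 2444 to 426 and 350, and Lipa, the acid lipase of lysosomes, from 5418 to 1361 and 1233. Abca1, the pump that exports cholesterol, stood at 1076 against 128 and 286 and missed the threshold (adjusted p = 0.0549). Fabp5, a fatty acid carrier that lymphocytes also use, stood at 1737 against 2068 and 2214.

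Lysosomal genes were lower in most members. Of 46 members, 11 fell and 0 rose, 16 were at least 2-fold lower on both isotype arrays, 40 had a negative difference and the median was -0.73. Cd68, a membrane protein of macrophage lysosomes, fell from 2290 to 375 and 402. Asah1 and Hexa, enzymes that break down ceramide and gangliosides, fell from 2992 to 686 and 512 and from 3816 to 883 and 706. Acp5, the acid phosphatase of macrophages and osteoclasts, fell from 2232 to 678 and 687, and Grn, the precursor of granulins, from 9890 to 3276 and 3079. The abundant protease Ctsb and the sphingolipid activator Psap fell as well, from 18265 to 6733 and 6916 and from 13546 to 5098 and 5509. Npc2, a cholesterol carrier of all lysosomes, stood at 14104 against 12319 and 12361, and Lamp2, a structural membrane protein, at 1625 against 1410 and 1324; neither was called. The summed signal of the list was 139603 against 70258 and 71316.

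Receptors that sense antibodies and microbes were lower, with 8 of 26 members that fell, 0 that rose and a median of -0.96. Fcer1g and Tyrobp, the signalling adaptors of activating receptors on myeloid and natural killer cells, fell from 4019 to 900 and 738 and from 5009 to 1346 and 1239. Clec4n (dectin-2), a receptor for fungal sugars, fell from 5640 to 784 and 856, Cd14, the coreceptor for bacterial endotoxin, from 1321 to 163 and 204, and Pirb, an inhibitory receptor for MHC class I, fell 4.98-fold from 760. Fcgr3 and Fcgr1, receptors for IgG, fell from 1287 to 206 and 344 and from 621 to 96.3 and 152, although Fcgr1 is also induced by interferon gamma. Tlr1, a sensor of bacterial lipoproteins, fell from 435 to 89.1 and 127. Fcgr2b, the inhibitory IgG receptor that B cells carry, stood at 899 against 1086 and 919, and Myd88, an adaptor that most leukocytes express, at 1701 against 1786 and 1674, and neither was called. Trem2 was the highest of the list, at 48.6 against 147 and 129, and was not called.

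Complement genes made by macrophages fell: of 16 members, 4 fell and 0 rose, with a median of -0.62. The 3 chains of C1q, which tags immune complexes and dying cells, fell in parallel, C1qa from 6722 to 1299 and 1094, C1qb from 5878 to 1079 and 954, and C1qc from 6273 to 1022 and 983. Of the other probe sets of C1qb, 1 fell as well and 1 was less different, at 862 against 469 and 390 (-0.93, adjusted p = 0.142). Cfp (properdin), which stabilises the alternative pathway, fell from 3404 to 606 and 466, and C6, a part of the membrane attack complex, stood at 925 against 120 and 148 (adjusted p = 0.0584). The complement receptor Cr2, which marks B cells, stood at 1983 against 1009 and 1365.

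Antioxidant genes fell in 3 of 24 members, with a median of -0.58. Hmox1, which splits haem, stood at 7111 against 621 and 635, and Blvrb, which reduces the resulting biliverdin, fell from 3233 to 820 and 661. Mgst1, a membrane-bound glutathione transferase, fell from 1887 to 276 and 158. Gclm, a subunit of the enzyme that starts glutathione synthesis, stood at 2050 against 609 and 827, and Nfe2l2, the factor that drives such genes, at 1490 against 638 and 528; neither was called. Thioredoxin (Txn1) stood at 7297 against 10158 and 10518, above the syngeneic array on both.

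**Figure D5:**
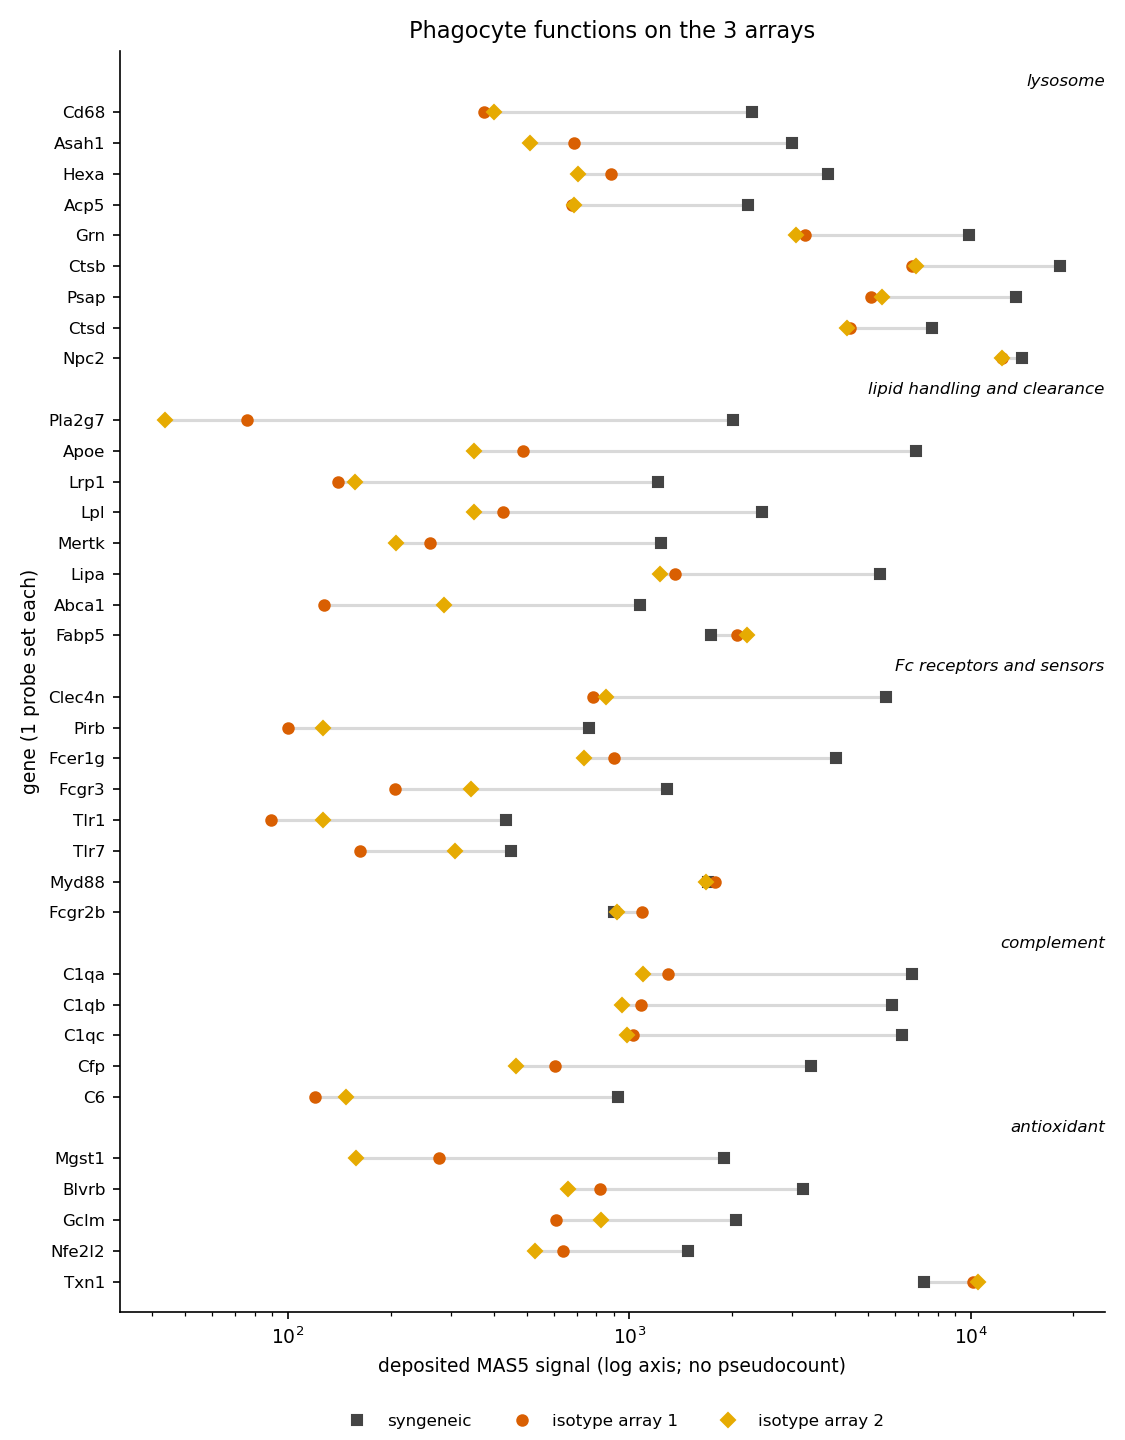
Deposited signal of genes of 5 phagocyte functions on a log axis for the syngeneic array (squares), isotype array 1 (circles) and isotype array 2 (diamonds), 1 probe set per gene. The syngeneic array lies above both isotype arrays in all genes shown except Fabp5, Myd88, Fcgr2b and Txn1, and the gap is widest for Pla2g7 and Apoe.

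Neutrophil markers and most monocyte markers were lower as well, while those of dendritic cells went both ways. Of 16 neutrophil genes, 7 fell, all 16 had a negative difference and the summed signal was 44844 against 12328 and 11925. Camp, the cathelicidin of granules, fell from 2678 to 368 and 498, and Elane, the elastase of granulocyte precursors, from 1616 to 420 and 421. Of 14 monocyte genes, 5 fell and 0 rose, and these 5 are shared with macrophages or granulocytes: Chil3, Cd14, Csf1r, Fcgr1 and Lyz2. In that list 9 genes had a negative and 5 a positive difference, and the median was -0.63. At an unadjusted p under 0.05, 7 monocyte genes were lower and 2 higher. The summed signal of the monocyte list was 39697 against 30851 and 33307. Chil3, a secreted chitinase-like protein, stood at 1931 against 111 and 135, and Csf1r, the receptor for the growth factor Csf1, fell from 10891 to 1951 and 2022 while Csf1 rose. Spn (CD43), carried by monocytes and by activated T cells, stood at 936 against 2103 and 2100 and was not called. Limma called 0 of 15 dendritic cell genes (0 higher and 4 lower at an unadjusted p under 0.05), with a median of -0.19. Their summed signal was 6574 against 6972 and 6205. Ccr9, Cd209a and Itgae stood lowest and Flt3 highest, at 78.7 against 244 and 74.4. Of 12 natural killer genes, Klra7 and Tyrobp fell; Klra7, a receptor whose presence varies between mouse strains, stood at 470 against 37.7 and 51.2, and Ncr1, the defining receptor of these cells, at 464 against 388 and 308.

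Red cell genes were lower in 19 of 21 members, with 8 that fell and a median of -1.51. Rhd, part of the Rh complex of the red cell membrane, stood at 1112 against 259 and 161. Tal1 and Klf1, factors that drive red cell genes, fell from 1389 to 306 and 276 and from 3200 to 799 and 711, and Car2, a carbonic anhydrase, from 13112 to 3385 and 3436. Tspan33 and Hemgn stood at 517 against 127 and 66.9 and at 1126 against 293 and 253, and only Tspan33 was called. Of 18 genes of haem synthesis and iron uptake, 16 had a negative difference, with a median of -0.56, and 2 fell. At an unadjusted p under 0.05, 7 were lower (38.9%, against 9.84% of all genes) and 0 higher. The 2 that fell, Cpox and Ppox, are consecutive late enzymes of the pathway. They stood at 1799 against 664 and 567 and at 489 against 189 and 180. Alas2, the red cell enzyme that starts the pathway, stood at 192 against 201 and 135, and Alad, the next enzyme, at 1119 against 1385 and 1677. Alpha globin (Hba-a1) stood at 76.6 against 5.0 and 158 and gave no direction. AGATAA, the letters of the GATA factor motif, was present in 6 of 15 erythroid promoters, against 11.4% of all promoters, and the Tal1 promoter (chr4:115056176-115056475, plus strand) is shown because this gene fell and holds it, on the other strand as TTATCT in capitals.

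Tal1: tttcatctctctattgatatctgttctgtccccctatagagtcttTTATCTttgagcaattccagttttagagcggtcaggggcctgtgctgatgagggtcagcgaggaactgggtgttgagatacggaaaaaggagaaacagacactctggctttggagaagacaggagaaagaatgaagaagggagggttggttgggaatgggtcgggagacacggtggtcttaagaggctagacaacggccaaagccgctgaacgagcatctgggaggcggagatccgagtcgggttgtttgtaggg

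B cell genes were lower in 17 of 18 members with a median of -0.58, but only Fcer2a (CD23) fell, from 586 to 74.3 and 132. Ms4a1 (CD20) stood at 9184 against 5090 and 4454, and Ighm, the heavy chain of IgM, at 63226 against 49414 and 49956 on its brightest probe set. Other probe sets of Ighm fell, from 2516 to 148 and 104 and from 1566 to 596 and 489. Of 11 plasma cell genes, Igha, the heavy chain of IgA, fell from 46620 to 2446 and 1788, and Prdm1, which T cells share, rose. Jchain, which links the units of IgA and IgM, stood at 11834 against 5616 and 6268, and the receptor Tnfrsf17 at 142 against 52.0 and 57.7; neither was called.

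Limma called 0 of 12 megakaryocyte, 8 mast cell and basophil, 13 progenitor, 19 endothelial and 15 exocrine pancreas genes, against 1 higher and 4 lower, 0 and 3, 0 and 2, 1 and 3, and 0 and 3 at an unadjusted p under 0.05. Clec1b, a receptor of platelets and their precursors, stood at 578 against 79.8 and 69.9, and Kit, the stem cell factor receptor of progenitors and mast cells, at 276 against 104 and 78.3. Of 34 stroma and matrix genes, Lamc1, a laminin chain, rose from 78.7 to 320 and 341, and Fn1, fibronectin, which macrophages also make, stood at 2012 against 961 and 1041. Stab2, a scavenger receptor of splenic sinus endothelium, stood at 514 against 229 and 131, whereas Kdr, a growth factor receptor of other endothelium, stood at 87.8 against 150 and 140. Enzymes of the exocrine pancreas, an organ that touches the spleen, summed to 7624 on the syngeneic array and 4256 and 4048 on the isotype arrays, with Cela1, an elastase, at 1640 against 532 and 457; the part of such carry-over in other values was not tested.

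Genes that interferon gamma induces were higher in 17 of 20 members with a median of 0.65, but 1 rose and 1 fell. Gbp2b, a guanylate-binding protein, rose from 65.2 to 2612 and 2609, and Fcgr1 fell; Gbp2b, the only member that rose, also varies between mouse strains, so that its level and a sequence difference under its probes cannot be told apart. Gbp2 and Gbp3, of the same family, stood at 1140 against 2433 and 2507 and at 328 against 557 and 1012, and missed the threshold (adjusted p = 0.0546 for Gbp2). Genes of the type I interferon response had a median of -0.24 with 0 of 24 called by limma (2 higher and 3 lower at an unadjusted p under 0.05): Rsad2, an antiviral enzyme, stood at 1464 against 506 and 624, and Zbp1, a nucleic acid sensor, at 900 against 2041 and 1902. TTTCNNTTT, the core of the interferon-stimulated element, was present in 10 of 14 promoters of the interferon gamma list (71.4%) against 10.7% of all promoters, and TTCNNNGAA, the letters of the STAT site, in 6 of 14 (42.9%) against 8.5%. The promoters of Gbp2b (chr3:142594597-142594896, plus strand) and Gbp2 (chr3:142620413-142620712, plus strand), neighbours in the genome, are shown because the signal of Gbp2b differed most in the list and that of Gbp2 less; capitals mark TTTCNNTTT.

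Gbp2b: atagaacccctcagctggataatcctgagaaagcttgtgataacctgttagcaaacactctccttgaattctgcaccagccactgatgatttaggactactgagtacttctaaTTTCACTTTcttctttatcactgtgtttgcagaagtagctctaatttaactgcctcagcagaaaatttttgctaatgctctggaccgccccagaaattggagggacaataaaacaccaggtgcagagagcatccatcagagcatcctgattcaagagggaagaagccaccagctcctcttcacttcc

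Gbp2: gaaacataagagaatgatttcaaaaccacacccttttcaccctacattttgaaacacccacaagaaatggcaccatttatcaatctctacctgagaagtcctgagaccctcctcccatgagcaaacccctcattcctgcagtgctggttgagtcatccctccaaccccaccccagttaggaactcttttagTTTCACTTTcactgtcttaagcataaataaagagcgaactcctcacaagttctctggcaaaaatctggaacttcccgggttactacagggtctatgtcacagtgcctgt

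Both promoters hold the same 9 letters once, and neither holds TTCNNNGAA within this window.

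Genes that load peptides on MHC class I had a median of 0.16 and limma called 0 of 12 (4 higher and 1 lower at an unadjusted p under 0.05). Psmb9, an immunoproteasome subunit, stood at 3188 against 6329 and 6267, while B2m, the light chain, stood at 23436 against 16076 and 16857. All 11 genes of MHC class II presentation had a negative difference, with a median of -0.82, and H2-Ab1, a class II chain, and Lgmn, a lysosomal protease, fell. H2-Ab1 stood at 4663 against 726 and 1086, Ctss, a protease that trims the invariant chain, at 9180 against 4460 and 4391, and H2-Aa, the partner chain, at 11726 against 7211 and 6073. Since the donors' MHC differs from that of B6, a level and a sequence difference under the probes cannot be told apart for H2-Ab1 and H2-Aa.

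Some of the largest differences lay in genes that vary between mouse strains, for which a level and a sequence difference under the probes cannot be told apart. Of 8 genes listed as such, 3 rose (Gbp2b, Ifi202b and H2-Ea) and 3 fell (H2-D1, Klra7 and H2-K1). Another probe set of H2-K1, an MHC class I heavy chain, stood at 7450 against 8261 and 9289. Ifi202b, which binds DNA and responds to interferon, stood at 44.4 against 1474 and 1526, and H2-Ea, a class II chain that B6 mice do not make, at 56.1 against 300 and 244. Of 59 genes with 2 or more called probe sets, 56 were called in 1 direction and 3 in both: H2-D1, Pclaf and Pdxdc1. The brightest probe set of H2-D1, an MHC class I heavy chain, fell from 24785 to 3995 and 4259, and another rose from 38.7 to 3460 and 3456. A probe set of Pclaf, a PCNA-binding replication protein, rose from 3369 to 8299 and 9511, and another fell from 697 to 103 and 149. For Pdxdc1, a decarboxylase-like gene, a probe set rose from 30.5 to 837 and 492, and another fell from 346 to 66.7 and 65.5.

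Genes of damage response and cell death, which irradiation touches in all recipients, had medians near 0. Limma called 0 of 22 p53 targets (0 higher and 3 lower at an unadjusted p under 0.05) and 0 of 26 BCL2 family, caspase and inhibitor genes (2 and 3). Trp53inp1, a p53-induced regulator of death and autophagy, stood at 2282 against 664 and 648 (-1.73 ± 0.34, adjusted p = 0.0694), and Cdkn1a (p21), which halts the cell cycle, at 1149 against 800 and 639. Mdm2, the p53 antagonist that p53 induces, stood at 833 against 1067 and 1096. Casp4, an inflammatory caspase, stood at 172 against 564 and 653 and missed the threshold (adjusted p = 0.0784).

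Outside the lists, the 10 largest called rises were those of Ccnb1ip1, Ifi44l, Pdxdc1, Tmem87a, Esm1, Ifitm1, Cap1, Bcat1, Dsp and Adam19. Since the donor strain differs, a level and a sequence difference under the probes cannot be told apart for any gene of this paragraph. Another probe set of Pdxdc1 fell, as given above. Ifitm1, an interferon-induced membrane protein, rose from 1243 to 8823 and 7369, and Cap1, which recycles actin monomers, from 1230 to 6858 and 7563. Bcat1, which breaks down branched-chain amino acids, rose from 111 to 822 and 851, and Adam19, a membrane protease, from 471 to 2275 and 2628. Ccnb1ip1, Ifi44l, Esm1 and Dsp stood at 4.5, 3.3, 1.1 and 1.7 on the syngeneic array, so no fold change is given for them. The 10 largest falls were those of C1qtnf12, Rpgrip1, Hebp1, Cyp4f18, Malat1, Adgre4, Abcc3, Tgfbi, Parp3 and Lpin1. Adgre4, an adhesion receptor of myeloid cells, fell from 1471 to 149 and 121, Tgfbi, a matrix protein that macrophages secrete, from 1396 to 176 and 102, and Cyp4f18, which degrades the lipid mediator leukotriene B4, from 433 to 8.2 and 4.6. Lpin1, an enzyme of fat synthesis, fell from 826 to 56.3 and 72.4, and Malat1, a long nuclear RNA present in nearly all cells, from 5308 to 789 and 453. C1qtnf12, a secreted relative of C1q, stood at 6630 against 447 and 198.

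On the 4 arrays of C3H-grafted mice given anti-ICOSL, some genes lay near the isotype values and others did not; values alone are given, because all share the same syngeneic array. Lgals1 ranged from 26017 to 28688 on them against 5423 on the syngeneic array, S100a6 from 4653 to 5552 against 759, and Foxm1 from 778 to 904 against 242. Apoe ranged from 473 to 723 against 6903, Hexa from 651 to 741 against 3816, and Igfbp4 from 559 to 820 against 8046. Fos stood at 611 and 568 with antibody from day 0 and at 396 and 450 with antibody from day 3, between the isotype values of 305 and 284 and the syngeneic value of 2515. Il4 stood at 106 and 91.2 with antibody from day 0 and at 69.7 and 91.5 from day 3, against 107 on the syngeneic array and 27.3 and 29.7 on the isotype arrays. Kit ranged from 186 to 214 on the anti-ICOSL arrays, between the isotype values of 104 and 78.3 and the syngeneic value of 276. Igha stood at 2698 and 2977 with antibody from day 0 but at 15228 and 13681 from day 3, against 46620 on the syngeneic array. Allogeneic RNA was combined before hybridisation, so these values cannot show variation between single spleens. The part of donor strain or antibody schedule in the values of Igha was not tested.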

How the data were processed

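Transcripts of spleen cells were measured on 7 Affymetrix arrays (10 µg of RNA each). Deposited was 1 linear intensity for every probe set, the MAS5 signal, per the submitters' processing notes, with no version named; the chip definition and scanner settings are not given in the sources used here. Of 22690 probe sets, 64 controls were left out, and 20380 of the rest have 1 gene symbol, 691 several and 1555 none; 20351 gene IDs matched RefSeq. Groups came from the sample labels. Promoters came from RefSeq (GRCm38.p6).

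From these values, log2(signal + 50) was fitted with limma 3.58.1 in R 4.3.3 over all 7 arrays in 4 groups, with no filter on low signal. The contrast was isotype minus syngeneic, two-sided, adjusted by Benjamini and Hochberg over 22626 probe sets at 0.05. The fit had 3 residual degrees of freedom, and the variance of the unreplicated syngeneic array was taken from the pairs. Errors are standard errors (SE). The number of arrays limits the precision. Tables were handled with pandas 2.3.3 in Python 3.11.15.

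The members, the 57 gene lists (1575 entries, 1367 on the array) and the tests were chosen with earlier results of these data known. Named genes are up to 6 members per list by size of difference, members called against their list, the 10 largest calls each way outside the lists, and Cd4, Cd8a, Foxp3, Gzmb, Icos, Icosl, Ifng, Il10, Il4 and Prf1. Chosen after their values were seen were Gata3, Zeb2, S100a8, S100a10, Vim, Tagln2, Ahnak, Klf2, Satb1, Il2, Cd86, Mcm7, Rfc2, Hspa5, Mertk, Fabp5, Ctsb, Psap, Npc2, Lamp2, Tlr1, Fcgr2b, Myd88, Trem2, Cr2, Txn1, Elane, Ncr1, Alas2, Alad, Ighm, Kdr, Pclaf and Mdm2. Alternatives were other pseudocounts (16, 100), filters (40th, 60th percentile), scalings, fits and arrays left out.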

Additional observations from a re-analysis of the deposited data

How the results depend on the processing

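Of 349 named genes, 132 were called, and none of their differences changed sign as a call under any of the 17 alternatives, but all 132 calls were lost without an isotype array. Limma's 542 calls (175 higher, 367 lower) became 225 (79 and 146) with a pseudocount of 16, 892 (301 and 591) with 100, 1017 (383 and 634) with a filter at the 40th percentile of signal, 1616 (651 and 965) at the 60th, and 1331 (607 and 724) with the trend and robust options. The fit to the 3 arrays compared called 0 (0 higher, 0 lower; 2915 at an unadjusted p under 0.05). With the replicate block it called 227 (60 and 167); the replicate numbers did not pair the samples, since the correlations of same-numbered arrays were -0.00572, 0.0509 and 0.0349. Leaving out 1 array gave from 0 to 178 calls, 0 to 46 higher and 0 to 132 lower. Chosen after seeing the data, the 40th percentile filter without isotype array 1 or 2 called 516 and 406, with 163 and 116 higher and 353 and 290 lower. Quantile normalization called 484 (169 and 315). Median centring called 538 (210 and 328) and moved the median of all genes from 0.03 to 0.12. With it, 2114 probe sets were higher and 1635 lower at an unadjusted p under 0.05, the reverse of the main split. Of gene values recomputed, 4751 kept their side of the threshold, 832 lost it, 267 gained it and 9 moved; of list medians, 775 stayed and 251 moved. The causes were not tested. Signal limits the dimmest genes, whose differences shrink with the pseudocount, and the syngeneic array has no replicate.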
